A study of Mus musculus with 15 samples.

Results

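Complement is the plasma and tissue cascade that marks surfaces for removal. It can be started by C1q bound to antibody or dying cells, by lectins on foreign sugars, or by slow spontaneous turnover of C3, and each route ends in a convertase, an enzyme built either from C4 and C2 or from C3 and factor B, that cleaves C3. The fragments left on the surface are read by phagocytes, the released peptides C3a and C5a act through receptors on myeloid cells, and soluble and membrane-bound regulators hold the cascade in check. Tumors can make their own complement, in cancer cells as well as in macrophages and stroma, and several component genes are inducible by interferon.

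Described here are 8 complement genes, chosen by name from 18279 genes in the table: the central component *C3*, the classical convertase genes *C4b* and *C2*, the alternative-pathway protease *Cfb*, the regulators *Serping1* and *Cd55*, and the anaphylatoxin receptors *C3ar1* and *C5ar1*. All 8 were detected in all 15 tumors and all 8 passed the minimum mean normalized read count of 10. Each tumor grew from Renca, a mouse renal carcinoma cell line, injected with Matrigel under the skin of the back of young female BALB/c mice aged 4 to 6 weeks. There were 5 tumors of control cells (tumors 1 to 5), 5 of *Pbrm1* knockout clone 4 (tumors 6 to 10) and 5 of *Pbrm1* knockout clone 18 (tumors 11 to 15). The sample labels call the control cells parental, whereas the study's methods describe a control knockout line, and each knockout group is 1 clone made by Cas9 editing with a puromycin-selected repair plasmid, so that genotype and cell line cannot be told apart. The labels do not state which mice, if any, received PD-1 antibody. *Pbrm1* encodes a subunit of the PBAF form of the SWI/SNF chromatin remodeling complex.

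The whole table was fitted together. *Pbrm1* itself had normalized read counts of 7451.5 to 9870.6 in the control tumors and of 2483.8 to 3137.5 in the knockout tumors, with no overlap. Between 32924414 and 49099168 reads per tumor fell on genes. The renal epithelial marker *Pax8* was present in all tumors, at 3363.4 to 4143.0 in control, 2927.7 to 3942.3 in clone 4 and 2719.2 to 3281.3 in clone 18 tumors. Of 10 renal epithelial markers, 1 (*Epcam*) was higher and 1 (*Krt18*) lower in the knockout tumors (9.23% and 12.9% of all genes). In clone 18, *Pax8* and *Krt18* were lower and *Epcam* higher (14.2% of all genes were lower and 10.4% higher). The liver, the main source of plasma complement, was represented by *Alb* alone, at 1.2 or less. Summed macrophage markers (12 genes) ranged from 120705 to 185448 in control, 107621 to 138871 in clone 4 and 96136 to 130432 in clone 18 tumors. Summed neutrophil markers (8 genes) ranged from 801 to 1843 in control tumors, with tumors 2 and 4 highest, from 532 to 784 in 4 of the 5 clone 4 tumors with tumor 10 at 2045.2, and from 609 to 859 in clone 18 tumors. The defining neutrophil marker *Ly6g* was at 2.3 or less in all tumors and at 0 in every clone 18 tumor, whereas *S100a9* reached 903.4. *Ly6g* and *Csf3r* (482.7 to 574.5 in control, 305.4 to 591.5 in clone 4 and 273.1 to 408.6 in clone 18 tumors), 2 of the 8 neutrophil markers, were lower in the knockout tumors and in clone 18, where 12.9% and 14.2% of all genes were lower. None of 10 fibroblast markers passed limma's adjusted threshold in the knockout tumors, none had an unadjusted p under 0.05, and edgeR and DESeq2 called 0.

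Of the 8 genes, 4 were lower in the 10 tumors of the knockout clones than in the 5 controls (*C4b*, *C2*, *Serping1* and *C3ar1*) and 0 were higher at an adjusted p under 0.05, where 12.9% of all 18250 genes tested were lower and 9.23% higher. The median log2 difference over the 8 genes was −0.55, against −0.02 over all genes tested. The 8 genes and all lists were chosen with earlier results of these data known. Their counts and medians beside those of all genes are therefore descriptions only. Against the same controls, 3 genes were lower in clone 4 (*C4b*, *C2*, *Serping1*; 10.0% of all genes were lower), and in clone 18 5 genes were lower (*C4b*, *C2*, *Cfb*, *Serping1*, *C3ar1*; 14.2% of all genes) and *C3* was higher (10.4% of all genes). Both clone comparisons share their 5 control tumors and are therefore not independent of each other.

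**Figure D1:**
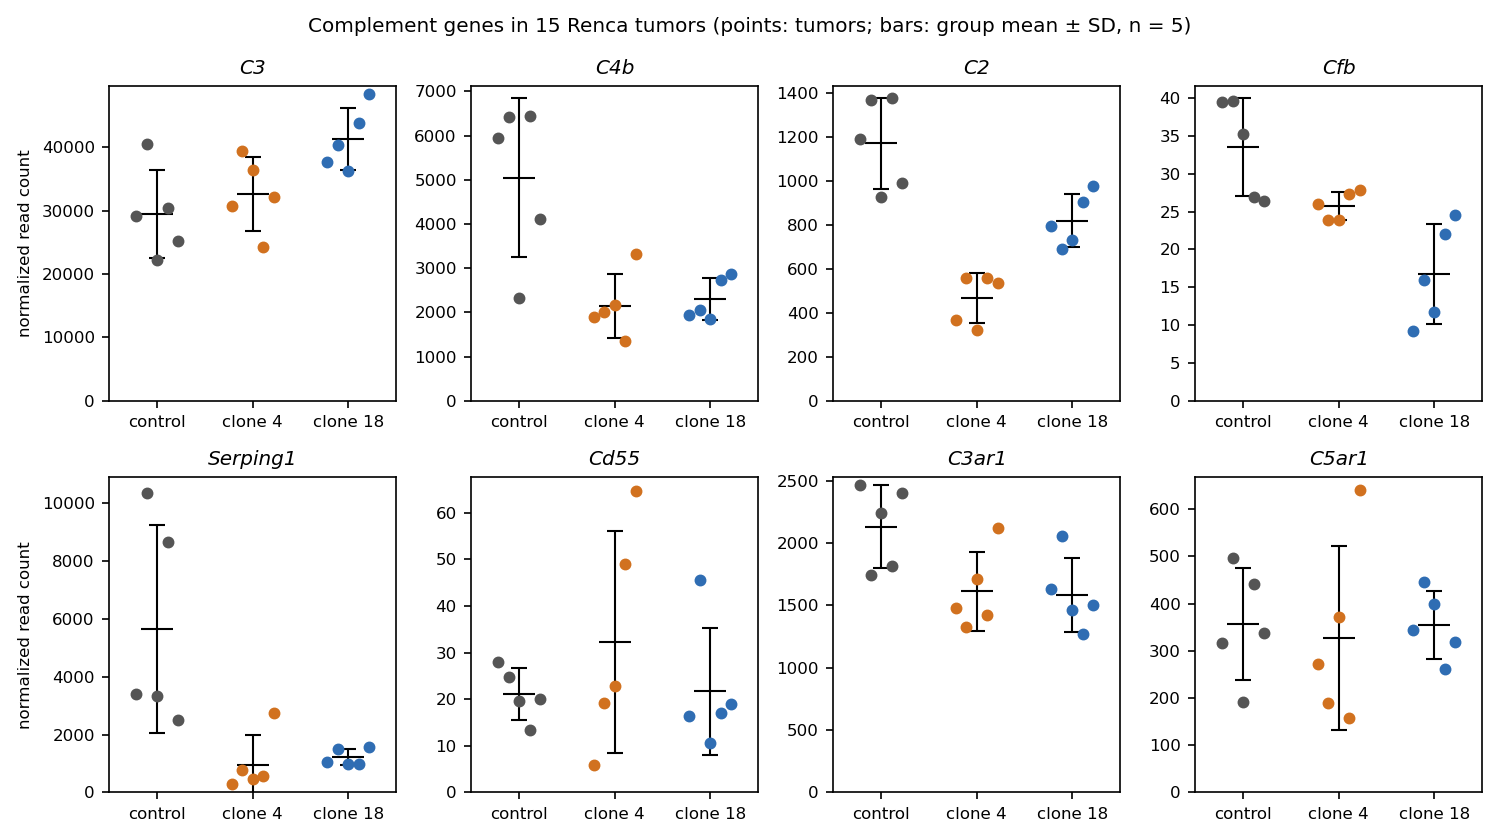
Normalized read counts (vertical axes, starting at 0) of the 8 complement genes in each of the 15 tumors, as points in tumor order within each group, with the group mean and SD (n = 5) as bars. For *C2* the 5 clone 4 tumors lie between 322.3 and 559.0 and the 5 control tumors between 928.2 and 1374.9, whereas the *C5ar1* points of the 3 groups cover each other.

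**Figure D2:**
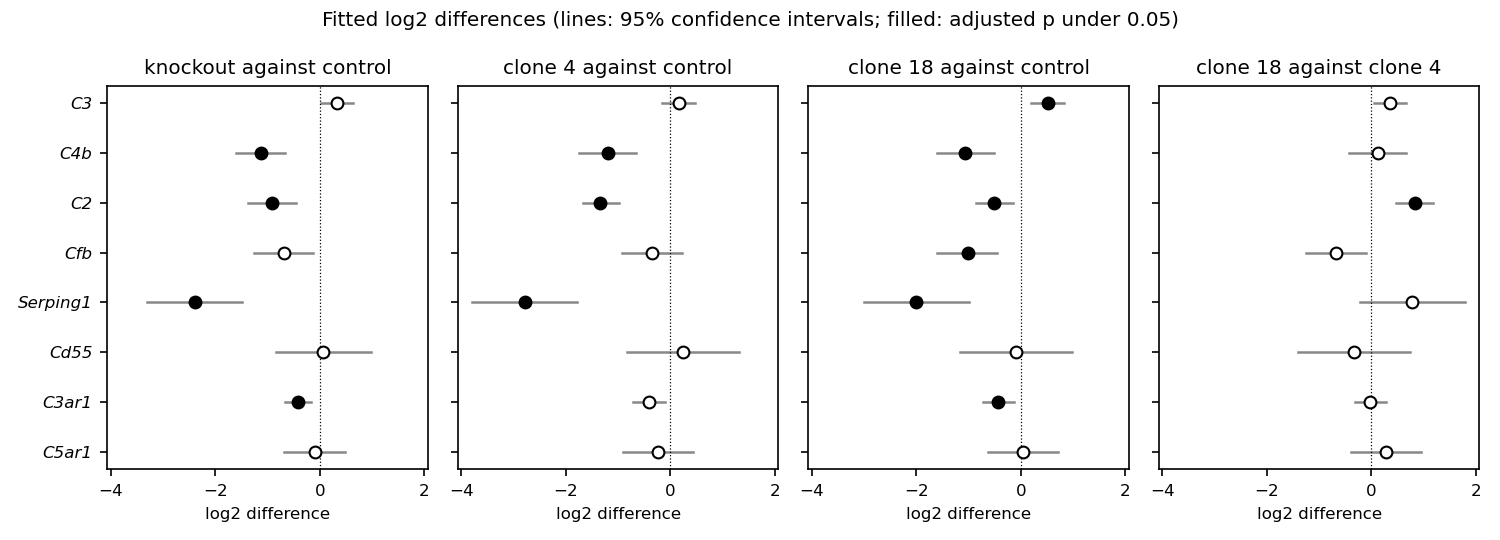
Fitted log2 differences (horizontal axes) of the 8 genes in 4 comparisons, with 95% confidence intervals as lines and genes at an adjusted p under 0.05 as filled points. *Serping1* lies farthest from 0 in all 3 comparisons with control, at −2.39, −2.79 and −2.00, and *C2* is the filled point in the comparison of the clones, at 0.83.

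In the mouse genome *C4b*, *Cfb* and *C2* lie in the class III part of the major histocompatibility complex on chromosome 17, all on the minus strand (GRCm38, GENCODE M21: *C4b* at chr17:34728380-34743882, *Cfb* at chr17:34856374-34862518, *C2* at chr17:34862604-34898265). *Cfb* and *C2* adjoin, whereas other genes lie between *C4b* and *Cfb*, among them *C4a* at chr17:34809092-34823464. *C3* is on the same chromosome at chr17:57203970-57228136. *C4a* encodes the sex-limited protein, a close copy of C4, and the longest annotated transcripts of the 2 genes were identical at 5160 of 5367 aligned bases (96.14%), with 35.2% of the 50-base stretches of each present unchanged in the other. A read lying wholly inside such a stretch cannot be assigned to either gene. The window of 90 bases, coding in *C4b* and within 1 exon of each gene, with the most differences is shown because it marks where the 2 genes can be told apart. Both stretches lie in exon 21 of their transcript and are written 5′ to 3′ in transcript direction from the GRCm38 reference (C57BL/6J, not the BALB/c strain of Renca), *C4b* at chr17:34735430-34735519 and *C4a* at chr17:34816086-34816175, with the 14 differing bases in capitals.
C4b: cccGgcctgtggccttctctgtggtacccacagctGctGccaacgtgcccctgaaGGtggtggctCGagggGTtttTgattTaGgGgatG
C4a: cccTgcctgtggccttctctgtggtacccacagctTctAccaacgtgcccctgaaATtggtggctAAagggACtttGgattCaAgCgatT

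*C4b*, the precursor of the C4 that joins C2 in the classical convertase, was 2.27-fold lower in the knockout tumors. Its normalized read counts were 5953.4, 6413.6, 2323.9, 6444.1 and 4117.2 in the control tumors, 1897.8, 2020.1, 2168.4, 1359.7 and 3333.0 in clone 4 tumors, and 1951.2, 2059.7, 1850.9, 2739.4 and 2878.3 in clone 18 tumors. Control tumor 3 was low among the controls and lay inside the knockout range, and 7 of the 10 knockout tumors lay below all controls. The log2 difference was −1.13 ± 0.22 (SE, adjusted p = 0.00146), −1.19 ± 0.26 in clone 4 (adjusted p = 0.00405) and −1.07 ± 0.26 in clone 18 (adjusted p = 0.00625). With a 2-sample test on log2 values that lets the variances differ, the adjusted p for all knockout tumors was 0.0556. *C4a* was also lower (log2 difference −0.73 ± 0.23, adjusted p = 0.0319), a call that was lost without control tumor 1 (adjusted p = 0.0902), 2 (0.0993) or 4 (0.099). That call was also lost without tumors 2, 4 and 10 together (adjusted p = 0.213) and in the test with unequal variances (0.167). *C4a* passed in clone 4 (−0.83 ± 0.27, adjusted p = 0.0411) but not in clone 18 (−0.62 ± 0.27, adjusted p = 0.103). The *C4a* count was 5.99% to 6.14% of the *C4b* count in control tumors, 6.62% to 8.64% in clone 4 tumors and 7.28% to 10.1% in clone 18 tumors. The proportion thus differed little among the controls, tumor 3 included, and was above all controls in each knockout tumor. What part of it stems from reads shared by the 2 genes was not tested.

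*C2*, the protease of the classical convertase, was lower in both clones and lower in clone 4 than in clone 18. The normalized read counts were 1191.8, 1367.8, 928.2, 1374.9 and 988.6 in control tumors, 369.3, 559.0, 322.3, 557.5 and 536.9 in clone 4 tumors, and 792.9, 689.0, 730.4, 905.1 and 977.3 in clone 18 tumors. All clone 4 tumors lay below all control tumors and below all clone 18 tumors, whereas clone 18 tumor 15 lay within the control range. Of all genes, 8.20% had every clone 4 tumor below every control, and 2.64% had every clone 18 tumor above every clone 4 tumor. The log2 difference from control was −1.34 ± 0.16 in clone 4 (adjusted p = 2.5e-05) and −0.51 ± 0.16 in clone 18 (adjusted p = 0.0315), and that between clone 18 and clone 4 was 0.83 ± 0.16 (adjusted p = 0.00621). *C2* was the 1 gene of the 8 that differed between the clones, where 2.49% of all genes were higher in clone 18 and 4.62% differed, and this call held in all 25 alternatives. The clone 18 call was lost when any of control tumors 1, 2 and 4 or clone 18 tumors 11, 12 and 13 was left out, with adjusted p from 0.0575 to 0.0774.

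*Cfb*, which encodes factor B of the alternative-pathway convertase, was found at low levels, with a log2 difference of −1.02 ± 0.27 in clone 18 (adjusted p = 0.0109). The counts were 39.5, 39.6, 35.2, 26.9 and 26.4 in control tumors, 26.0, 23.9, 23.9, 27.3 and 27.8 in clone 4 tumors, and 9.2, 16.0, 11.8, 22.1 and 24.6 in clone 18 tumors. All clone 18 tumors lay below all controls (as for 9.82% of all genes), while clone 4 tumors, which spanned only 23.9 to 27.8, met the lower edge of the control range. The difference from control in clone 4, −0.35 ± 0.27 (adjusted p = 0.445), and that of all knockout tumors, −0.69 ± 0.27 (adjusted p = 0.0783), did not pass the threshold. The latter did pass in the test with unequal variances (adjusted p = 0.0334) and as the mean of the 2 clone effects (adjusted p = 0.0413). The annotated readthrough gene *Gm20547* runs on the same strand over *C2* and *Cfb* and shares 79.5% of the exon bases of *Cfb* and 42.77% of those of *C2*. It is no row of the table used here, and how reads in the shared exons were assigned was not tested for either gene. *Zbtb12*, on the opposite strand, shares 4.16% of the exon bases of *C2* and was higher in the knockout tumors (log2 difference 0.61, adjusted p = 0.00147), the reverse of *C2*.

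Other genes of this locus moved in both directions. Of 20 genes outside the complement list that lie within 100 kb of *C4b*, *Cfb* or *C2*, 1 was lower (*Tnxb*, tenascin X) and 4 were higher (*Nelfe*, *Zbtb12*, *Ehmt2*, *Gm10501*) in all knockout tumors, where 12.9% of all genes were lower and 9.23% higher. The median log2 difference of the 20 was −0.01. In clone 4, 3 were lower, *Tnxb* (−1.25, adjusted p = 0.000101), its pseudogene *Tnxa* (−1.69, adjusted p = 0.0247) and the steroid 21-hydroxylase gene *Cyp21a1* (−1.91, adjusted p = 0.0184), and 4 were higher (10.0% and 6.79% of all genes). In clone 18, 0 were lower and 5 higher (14.2% and 10.4% of all genes). *Tnxb*, next to *C4b*, was higher in clone 18 than in clone 4 by 0.81 on the log2 scale (adjusted p = 0.0117), beside 0.83 for *C2*.

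*C3*, the component on which all routes converge, was the most abundant of the 8 genes in every group. The normalized read counts were 29109.2, 40529.5, 22199.9, 30460.4 and 25258.3 in control tumors, 30727.2, 39450.1, 36428.3, 24333.9 and 32105.4 in clone 4 tumors, and 37645.2, 40402.5, 36168.0, 43800.1 and 48335.2 in clone 18 tumors. Control tumor 2 stood among the clone 18 tumors, while the other 4 controls lay below every one of them. The log2 difference was 0.51 ± 0.15 in clone 18 (adjusted p = 0.019, 0.0566 without control tumor 3). It was 0.16 ± 0.15 in clone 4 (adjusted p = 0.547, 95% interval −0.16 to 0.47) and 0.33 ± 0.15 over all knockout tumors (adjusted p = 0.116), which passed the threshold without control tumor 2 (0.45, adjusted p = 0.0347) or clone 4 tumor 9 (0.39, adjusted p = 0.0361). Between the clones the difference was 0.35 ± 0.15 (adjusted p = 0.21).

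Upstream windows of 250 bases were available from RefSeq (GRCm38.p6) for *C3*, *C3ar1*, *C5ar1* and *Cd55*, 4 of the 8 genes. Those of *C3* and *C3ar1*, the 2 that passed a test, are given because their genes moved in opposite directions in clone 18. Both read 5′ to 3′ on the minus strand and end 1 base before the start that RefSeq gives, at chr17:57228137-57228386 for *C3* and chr6:122856158-122856407 for *C3ar1*, with the matches found in capitals. The last 4 bases of the *C3ar1* window lie inside the gene as GENCODE M21 draws it.
C3: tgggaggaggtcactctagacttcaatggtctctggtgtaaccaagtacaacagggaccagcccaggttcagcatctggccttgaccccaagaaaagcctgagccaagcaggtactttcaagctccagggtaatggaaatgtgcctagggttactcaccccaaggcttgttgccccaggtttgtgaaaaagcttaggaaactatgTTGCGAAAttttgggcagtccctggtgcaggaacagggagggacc
C3ar1: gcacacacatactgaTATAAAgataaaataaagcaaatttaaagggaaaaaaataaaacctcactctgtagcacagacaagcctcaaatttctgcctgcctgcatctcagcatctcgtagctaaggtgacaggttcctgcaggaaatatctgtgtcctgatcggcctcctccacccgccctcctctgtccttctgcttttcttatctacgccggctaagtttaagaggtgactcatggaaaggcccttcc
The letters TTGCGNAA, a C/EBP core, were found in *C3* at base −45, and in 0.7% of all 32851 windows. TATAAA was found in *C3ar1* at base −235 (12.4% of all windows). TTCNNNGAA, the interferon motif GAS, was in none of the 4 windows (7.0% of all windows). GAAANNGAA, a core of the interferon motif ISRE, was in *C5ar1* alone of the 4, at base −66 (7.1% of all windows). AGGAAG, an ETS core, was also in *C5ar1* alone, at bases −189, −71 and −67 (29.5% of all windows), and its last 2 matches overlap each other and, in part, the ISRE core. GENCODE M21 starts *C5ar1* farther out than RefSeq, and 202 of the 250 bases of that window lie inside the GENCODE gene, the ISRE core and the matches at −189, −71 and −67 among them. Both strands were searched, and a match or its lack is a description of these letters only.

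*Serping1* (chr2:84765387-84775444, minus strand) encodes the C1 inhibitor, which removes the active proteases C1r and C1s from the C1 complex, and it showed the largest difference of the 8 genes. Its normalized read counts were 3417.7, 10369.1, 3323.5, 8663.9 and 2491.0 in control tumors, 303.8, 774.0, 448.6, 562.1 and 2734.8 in clone 4 tumors, and 1052.1, 1487.5, 996.1, 995.3 and 1580.8 in clone 18 tumors. Of the knockout tumors only clone 4 tumor 10 reached the control range, just above its lowest value, and controls 2 and 4 were far above the other controls. The mean was 5653 in control and 1094 in knockout tumors, 5.17-fold lower, and the log2 difference was −2.39 ± 0.44 (adjusted p = 0.0008), −2.79 ± 0.48 in clone 4 (adjusted p = 0.000587) and −2.00 ± 0.48 in clone 18 (adjusted p = 0.00547). These 3 calls held in all alternatives run.

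The tumors with high *Serping1* within their group, 2, 4 and 10, were those with the highest summed neutrophil markers. Of those markers, the defining *Ly6g* was at 2.3 or less in all tumors, and *Csf3r* ranged only from 482.7 to 574.5 over the controls. Tumor 10 was also the highest of all in summed fibroblast markers (10 genes), at 186061.2 against 19446.5 to 101250.1 in the other clone 4 tumors, and in mast cell markers (5 genes), at 74.6 against 5.8 to 9.1, and its skeletal muscle markers (5 genes) were at 1044.8 against 51.8 to 555.3. Without these 3 tumors *Serping1* still passed the test in the knockout tumors (log2 difference −1.91, adjusted p = 0.00473). Its difference between clone 18 and clone 4 was 0.78 ± 0.48 with all tumors (adjusted p = 0.413). The *C2* difference of all knockout tumors was −0.74 without them (adjusted p = 0.0926), against −0.92 ± 0.22 (adjusted p = 0.00599), and in clone 18 it was −0.34 (adjusted p = 0.199). Without the same tumors the other knockout differences were −0.90 for *C4b* (adjusted p = 0.0173), −0.63 for *C3ar1* (adjusted p = 0.00217) and 0.54 for *C3* (adjusted p = 0.0353), the last then past the threshold. Among the controls, tumors 2 and 4 were highest in *C4b*, *C2* and *C3* and lowest in *C3ar1*. In clone 4, tumor 10 was highest in *C3ar1*. These shifts thus follow in part from which tumors were left out, and are no support for a difference in *C3* or *C3ar1*. What part of the *Serping1* and *C2* results goes with cells of these marker lists was not tested, and in whole tumors fewer cells of a type and less RNA per cell cannot be told apart.

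**Figure D3:**
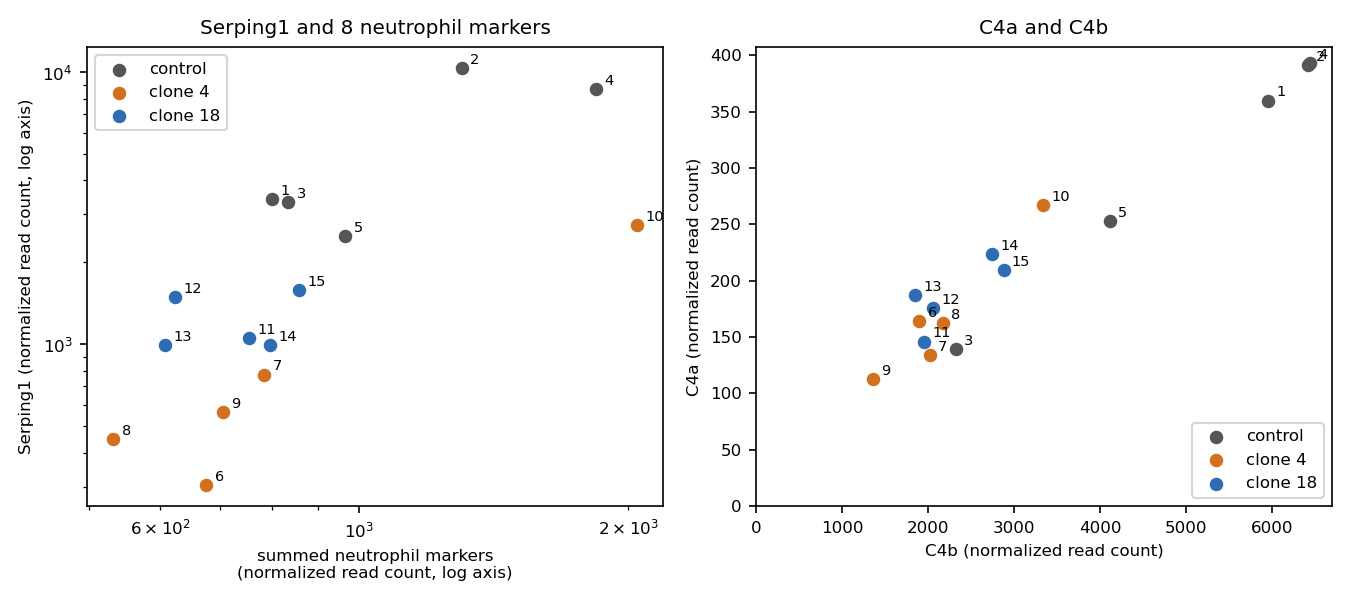
Left, *Serping1* against the sum of 8 neutrophil markers (both in normalized read counts, log axes), and right, *C4a* against *C4b* (normalized read counts), with 1 point per tumor labelled by tumor number and colored by group. In the left panel tumors 2, 4 and 10 lie to the right, with *Serping1* at 10369.1, 8663.9 and 2734.8. Of the 8 markers, the defining *Ly6g* was at 2.3 or less in all tumors. What part of the *Serping1* difference goes with these markers was not tested.

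*Cd55* (chr1:130439027-130462744, minus strand), decay-accelerating factor, which splits convertases on the cell surface, was at low levels with a wide spread. The counts were 27.9, 24.7, 19.5, 13.4 and 20.1 in control tumors, 5.8, 19.1, 22.9, 48.9 and 64.6 in clone 4 tumors, and 16.3, 45.5, 10.5, 17.0 and 19.0 in clone 18 tumors. The clone 4 tumors enclosed the whole control range. The log2 difference over all knockout tumors was 0.07 (95% interval −0.84 to 0.99, adjusted p = 0.932). limma, edgeR and DESeq2 called *Cd55* in 0 of the 4 comparisons, and its unadjusted p was under 0.05 in 0 of them.

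The other regulators are given by where they act. Of 7 soluble regulators tested, 4 were lower in the knockout tumors, among them *Serping1*, *C4bp* and *Cpn1*, and 1 was higher (*Clu*), beside 12.9% lower and 9.23% higher over all genes. *C4bp*, which encodes the C4b-binding protein, had counts of 119.5, 106.6, 136.3, 66.1 and 73.0 in control tumors, of 32.8, 5.7, 36.8, 15.9 and 8.9 in clone 4 tumors and of 28.6, 35.7, 28.8, 18.0 and 21.3 in clone 18 tumors. All 10 knockout tumors lay below all controls (as for 4.87% of all genes), with a log2 difference of −2.19 ± 0.38 (adjusted p = 0.000495). *Cpn1*, a carboxypeptidase that inactivates C3a and C5a, had a log2 difference of −0.67 ± 0.22 (adjusted p = 0.034), which failed the threshold in 10 of 27 alternatives. The *Cpn1* difference was −1.03 ± 0.18 in clone 4 (adjusted p = 0.000749). In clone 18 it was −0.30 ± 0.18 (adjusted p = 0.253), with 1 tumor above all controls. *Clu*, clusterin, an inhibitor of the membrane attack complex, was higher by 0.47 ± 0.14 (adjusted p = 0.0206, 0.0684 without control tumor 1 and 0.0645 without control tumor 3). The *Clu* difference was 0.29 ± 0.14 in clone 4 (adjusted p = 0.167) and 0.65 ± 0.14 in clone 18 (adjusted p = 0.00229). Of 8 membrane regulators tested, *Cd55* among them, 0 were called by limma, edgeR or DESeq2 in the knockout tumors and 0 had an unadjusted p under 0.05. The 2 abundant ones had narrow intervals, *Cr1l* (Crry, the broad rodent regulator of C3 and C4 convertases) at −0.03 (−0.14 to 0.07) and *Cd59a*, the inhibitor of the membrane attack complex, at −0.01 (−0.22 to 0.20).

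*C3ar1* (chr6:122847138-122856161, minus strand), the receptor of C3a, carried mainly by macrophages, was 1.33-fold lower in the knockout tumors. The counts were 2462.6, 1743.9, 2240.4, 1813.0 and 2399.1 in control tumors, 1479.3, 1322.5, 1712.8, 1423.4 and 2121.0 in clone 4 tumors, and 1627.7, 2054.8, 1459.5, 1270.0 and 1499.0 in clone 18 tumors. Of the 10 knockout tumors 8 lay below all controls, and tumors 10 and 12 lay within the control range. The log2 difference was −0.42 ± 0.12 (adjusted p = 0.0176), and this call was lost without control tumor 1 (adjusted p = 0.0593) or 5 (0.0554) and in the test with unequal variances (0.0507). It was −0.41 ± 0.14 in clone 4 (adjusted p = 0.0559, under the threshold without control tumor 2 or 4, clone 4 tumor 10 or clone 18 tumor 12) and −0.43 ± 0.14 in clone 18 (adjusted p = 0.0328, lost without control tumor 1, 3 or 5 or clone 18 tumor 13, 14 or 15, up to 0.0868). Of 12 macrophage markers, 3 were lower in the knockout tumors (*Csf1r*, *Mrc1*, *Cx3cr1*), 1 was higher (*Cd14*) and 8 did not pass the test, where 12.9% of all genes were lower and 9.23% higher. In clone 4, 2 were lower (*Csf1r*, *Cx3cr1*) and 1 higher (*Cd14*), where 10.0% and 6.79% of all genes were. In clone 18, 6 were lower (*Adgre1*, *Csf1r*, *Mrc1*, *Fcgr1*, *Cx3cr1*, *Aif1*) and 2 higher (*Cd68*, *Cd14*), where 14.2% and 10.4% of all genes were. The list's median log2 difference was −0.40 in all knockout, −0.25 in clone 4 and −0.48 in clone 18 tumors. None of its markers was at 0. Its part in the *C3ar1* result was not tested.

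*C5ar1* (chr7:16246743-16259540, minus strand), the receptor of C5a on neutrophils and macrophages, had counts of 315.7, 497.6, 192.0, 441.5 and 338.3 in control tumors, 271.9, 189.2, 372.0, 158.2 and 641.6 in clone 4 tumors, and 343.9, 446.6, 399.2, 260.6 and 319.1 in clone 18 tumors. The groups overlapped throughout, with clone 4 tumor 10 highest of all. The log2 difference of all knockout tumors was −0.10 ± 0.28 (95% interval −0.68 to 0.48, adjusted p = 0.84), and *C5ar1* passed no test of the 4 comparisons in limma, edgeR or DESeq2, nor an unadjusted p of 0.05. Of the 8 complement receptors tested, *Itgam*, the CD11b chain of complement receptor 3, was the other one called besides *C3ar1*, at −0.52 ± 0.11 (adjusted p = 0.00231), with 9 of 10 knockout tumors below all controls. Over all genes, 12.9% were lower in the knockout tumors. *Gm49368*, which is no row of the table used here, covers 68.67% of the exon bases of *Itgam* on the same strand.

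Over the complement pathway as a whole, 44 of 55 listed genes were in the table, and 14 were lower and 3 higher in the knockout tumors (17 called, 11 without control tumor 1), beside 12.9% lower and 9.23% higher over all genes. The median log2 difference of the 44 was −0.14. Without the 8 genes, 10 of the other 36 were lower and 3 higher. Of the 44, 10 were lower and 2 higher in clone 4 (10.0% and 6.79% of all genes), and 13 were lower and 5 higher in clone 18 (14.2% and 10.4% of all genes). Within the first component of the classical pathway the genes moved both ways. The 3 chains of the recognition molecule C1q were lower. The log2 difference was −0.38 ± 0.11 for *C1qa* (adjusted p = 0.0162), −0.46 ± 0.11 for *C1qb* (adjusted p = 0.00524) and −0.54 ± 0.10 for *C1qc* (adjusted p = 0.00127). The *C1qa* call was lost without control tumor 1 (adjusted p = 0.0632) and in the test with unequal variances (0.114). *C1qa* did not pass in clone 4 (−0.25 ± 0.11, adjusted p = 0.131) but did in clone 18 (−0.51 ± 0.11, adjusted p = 0.00238). The proteases that C1q activates were higher, *C1ra* by 0.49 ± 0.10 (adjusted p = 0.00181) and *C1s1* by 0.44 ± 0.09 (adjusted p = 0.00277), each with 9 of 10 knockout tumors above all controls. *C1ra* and *C1s1* are the targets of the C1 inhibitor, whose gene *Serping1* was lower. C1q genes are also expressed by macrophages, whose markers are given with *C3ar1*. The lectin-pathway gene *Fcna* (ficolin A, −0.53 ± 0.18, adjusted p = 0.0439) and the terminal component *C6* (−1.26 ± 0.44, adjusted p = 0.049) lay close to the threshold and failed it in 13 and 17 of 27 alternatives. *Hc*, encoding C5, had a log2 difference of 0.42 ± 0.41 (adjusted p = 0.515).

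**Figure D4:**
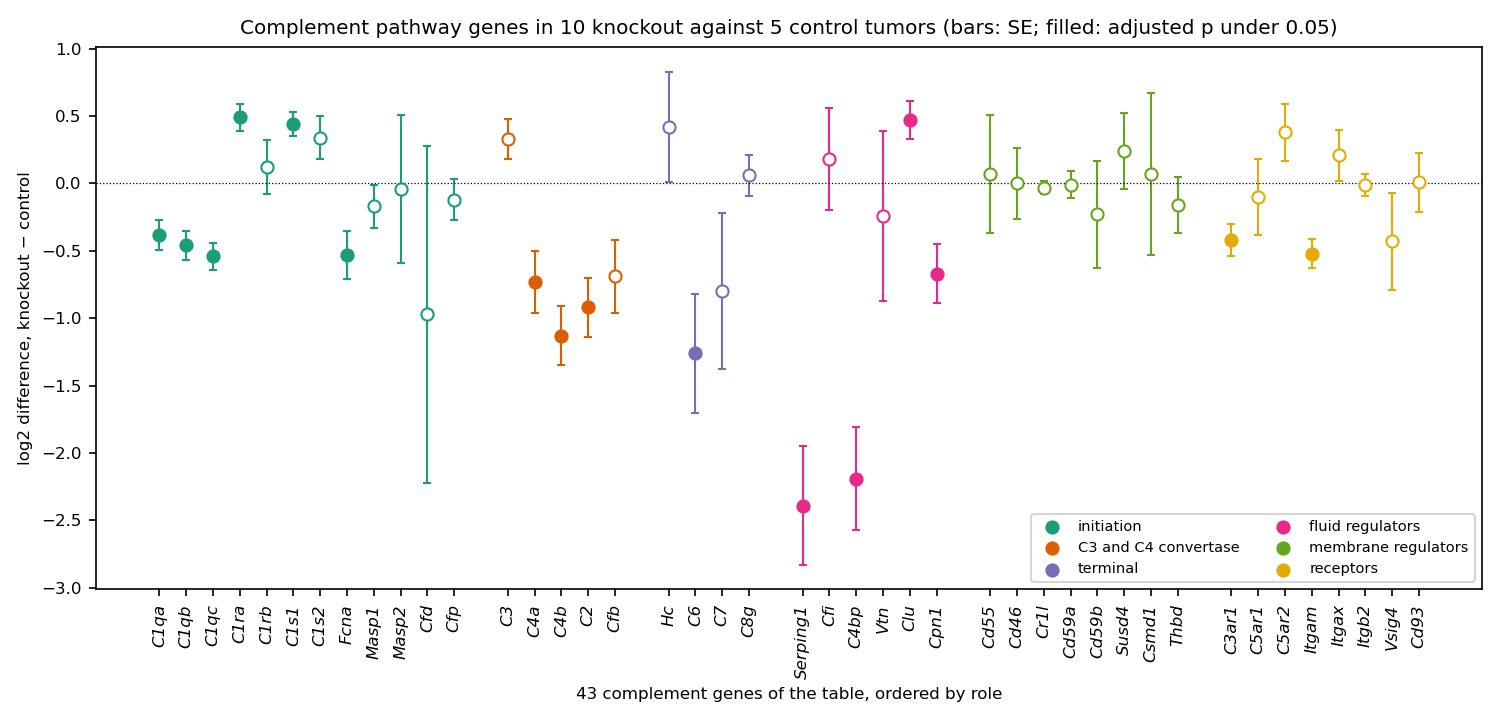
Log2 difference between 10 knockout and 5 control tumors (vertical axis) for 43 complement genes of the table, grouped and colored by role, with the SE as bars and genes at an adjusted p under 0.05 filled. *Serping1* (−2.39) and *C4bp* (−2.19) lie lowest, the C1q chains lie below 0 and *C1ra* and *C1s1* above it, and the 8 membrane regulators are all unfilled.

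Between the clones, 3 pathway genes differed besides *C2*, of 44 tested, where 2.13% of all genes were lower and 2.49% higher in clone 18. *Masp1*, a lectin-pathway protease, was lower in clone 18 than in clone 4 (log2 difference −0.59 ± 0.12, adjusted p = 0.00548), *C1s2* was higher (0.56 ± 0.13, adjusted p = 0.016), and *Cpn1* was higher (0.73 ± 0.18, adjusted p = 0.027, lost without clone 4 tumor 7, 8 or 9 or clone 18 tumor 11 or 12, with adjusted p from 0.0502 to 0.0653). Among 17 interferon-response genes, a program that several complement genes belong to, 5 were lower in the knockout tumors (among them *Ifit3*, *Psmb9*, *Cxcl9* and *Cxcl10*) and 0 higher, where 12.9% of all genes were lower and 9.23% higher. The list median was −0.22. In clone 18, 5 were lower and 1 (*Stat2*) was higher (14.2% and 10.4% of all genes). The part of this program in the results for *C4b*, *C2*, *Cfb* and *Serping1* was not tested.

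Divided by exon length, the mean levels in control tumors ran from *C3* (5738 normalized reads per kb) over *Serping1* (2431), *C4b* (886.8), *C3ar1* (495.2), *C2* (302.2), *C5ar1* (138.9) and *Cfb* (11.87) to *Cd55* (4.352). The tumor ranges of *C3* and *Serping1*, of *Serping1* and *C4b*, and of *C4b* and *C3ar1* overlapped there. In the knockout clones *C3* stood apart, since its lowest tumor had 4730 reads per kb in clone 4 and 7030 in clone 18 and the highest *Serping1* tumor 1180 and 680. *Serping1*, *C4b* and *C3ar1* then formed a run of overlapping levels, at 414.9, 378.5 and 374.4 in clone 4 and at 525.7, 403.1 and 367.5 in clone 18. *C2* ranked above *C5ar1* in control and clone 18 tumors without overlap, and in clone 4 their ranges overlapped (121.1 against 127.1). The lengths used include exon bases that *C2* and *Cfb* share with *Gm20547* and stretches that *C4b* shares with *C4a*. How reads there were assigned, and what this does to the ranks of *C4b*, *C2* and *Cfb*, was not tested.

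The genes whose deviations from the group means were most like those of each of the 8, over 15 tumors, among 12150 genes averaging 100 or more, were *C4a* for *C4b* (r = 0.958), *Scn8a* (0.988), *Isg20* (0.942) and *Fstl3* (0.94) for *Serping1*, and *H6pd* (0.917), *Stat3* (0.914) and *Ano6* (0.909) for *C3*. For *C5ar1* they were the chemokine genes *Ccl2* (0.919) and *Ccl7* (0.903) and *Myl6b* (0.882), for *C3ar1* *Ckb* (0.938), *Pla2g4a* (0.91) and *Slc37a2* (0.91), for *C2* *Eef2* (0.905), *Tmco4* and *Mafk* (both 0.873), for *Cd55* *Plod2* (0.874), *Itih5* (0.864) and *Il7r* (0.859), and for *Cfb* *Xrn1* (0.767), *Pigo* (0.759) and *Map2k5* (0.737). These values are descriptions, chosen as the highest of 12150 over points that share libraries. Among the 8 genes themselves, 28 pairs were compared. The highest correlation was that of *C3* and *C4b* (Pearson r = 0.74, permutation p = 0.011, adjusted p = 0.17; Spearman rho = 0.77, permutation p = 0.0034, adjusted p = 0.096), with r = 0.68 without tumors 2 and 9, and 0 of 28 pairs passed after adjustment.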

How the data were processed

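Gene-level read counts of 15 tumors were used. Per the labels and the study's methods, the authors aligned reads to mm10 with TopHat2, counted them with HTSeq and divided the counts by DESeq size factors. The deposited values are thus a signal, normalized read counts rounded to 1 decimal, that compare a gene between tumors but do not correct for gene length. Strand-specific counting is not given in the sources used here. Reads were recovered as whole multiples of each tumor's smallest step (at least 99.99% of values up to 8000 were whole within 0.05), with 32924414 to 49099168 reads on genes per tumor. For tumors 8 and 14 the step lies within rounding of 1 and was taken from higher values. The 29 genes at 0 in every tumor were dropped, leaving 18250.

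log2(normalized count + 1) was fitted with limma 3.58.1 (trend) in R 4.3.3, as 10 knockout against 5 control tumors and as 3 groups, with Benjamini-Hochberg adjustment over all genes and a threshold of 0.05. A fold change on this scale is understated for low genes, and fold values printed without "log2" are ratios of group means. Tumors are separate samples by their labels; nothing says whether they shared a day or cage, and p-values measure the spread between these tumors. The script was tested on simulated data. edgeR 4.0.16 and DESeq2 1.42.0 on recovered reads, other scalings, pseudocounts, filters, left-out tumors and a 2-sample test with unequal variances were alternatives. Sums of marker and pathway lists, positions (GENCODE M21, GRCm38) and RefSeq windows were added.

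The 8 genes and all lists were chosen with earlier results of these data known. Other genes are named where they belong to the complement list with a mean of at least 10 and an adjusted p under 0.05 in a comparison with control, or are close partners or copies of the 8 (*C4a*, *C1qa*, *C1qb*, *C1qc*, *Cr1l*, *Cd59a*, *Cfd*, *Hc*), or stand among the 3 genes most like one of the 8, or are called genes near *C4b*, *Cfb* and *C2*. Results for some genes are not reported here.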

Additional observations from a re-analysis of the deposited data

Results flagged for a closer look

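Single tumors stood apart in 4 of 84 groups of 5 tumors examined, 28 genes in 3 groups, where chance alone gives about 4.2. *Serping1* was 2734.8 normalized reads in clone 4 tumor 10, against 303.8 to 774.0 in the other 4 tumors of that clone. *Cd55* was 45.5 in clone 18 tumor 12, against 10.5 to 19.0 in the others. *Cfd*, the adipocyte-rich alternative-pathway protease factor D, was 423.6 in control tumor 2, against 2.8 to 19.0, and 117.8 in clone 18 tumor 13, against 0 to 19.0. The summed adipocyte markers (5 genes) were highest in the same tumors, at 204.4 in tumor 2 against 13.9 to 19.0 in the other controls and at 92.9 in tumor 13 against 7.4 to 25.8 in the other clone 18 tumors, and their part was not tested. The clones differed from each other, by the direct test of clone 18 against clone 4, in 4 of the 44 complement genes tested, where 4.62% of all genes differed: *C2* by a log2 difference of 0.83 (adjusted p = 0.00621), *C1s2* by 0.56 (adjusted p = 0.016), *Masp1* by −0.59 (adjusted p = 0.00548) and *Cpn1* by 0.73 (adjusted p = 0.027).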

How the results depend on the processing

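Each gene's log2 difference was recomputed under up to 27 alternatives, of which the summing of *C4a* and *C4b* and the joint removal of tumors 2, 4 and 10 were added after seeing the data. For the 8 genes, 757 of 816 recomputed values kept direction and side of the threshold, 21 lost it, 12 newly passed it and 26 changed sign. For the other named pathway genes 371 of 425 kept both, 54 fell short and 0 changed sign. Of the counts of called genes, 2 moved by more than 1.5 times. The genes called between the clones were 2 instead of 1 without tumors 2, 4 and 10 (*C2* and *Serping1*), which follows from leaving out the clone 4 tumor with the highest *Serping1* and is no support for a difference in it, and the pathway genes called in the knockout tumors were 11 instead of 17 without control tumor 1. With single tumors left out the pathway count ran from 11 to 17. The sign changes were in genes or comparisons that passed no test. Without tumors 2, 4 and 10, *Cd55* was at −0.21 in all knockout and in clone 4 tumors and at 0.00 between the clones, *C3ar1* at 0.08 between the clones and *C5ar1* at 0.09 in all knockout tumors. In clone 18 *Cd55* was at 0.06 in edgeR and 0.04 in DESeq2, and *C5ar1* at −0.01 in DESeq2. The causes were not tested. With single tumors left out, *Cd55* ran from −0.10 to 0.27 in all knockout tumors, −0.10 to 0.72 in clone 4, −0.40 to 0.11 in clone 18 and −0.81 to 0.00 between the clones. *C5ar1* ran from −0.31 to 0.03 in all knockout tumors and −0.17 to 0.17 in clone 18, and between the clones *C4b* ran from −0.02 to 0.30 and *C3ar1* from −0.12 to 0.08. No paired analysis was possible because no number links tumors of different groups. The low counts of *Cd55* and *Cfb* and the 5 tumors per group limit what can be seen for them, and no spread between cell lines can be had from 1 line per group.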
